A study of Mus musculus with 39 samples.

Results

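The genes described here are 33 genes of glucose uptake, glycolysis, lactate handling and glycogen metabolism, out of 38293 genes in a table of read counts from mouse left ventricle. They were chosen by function, as a list of symbols, with muscle or heart forms of an enzyme beside the forms that most tissues use, and all 33 were matched. The genes and their pairs were chosen with earlier results of these data known, so counts over them are descriptions and not independent support. The table held 39 hearts of C57BL6/J mice in 11 labelled groups. In the mutant set, mice carried R14del, a deletion of 1 amino acid in phospholamban (Pln), the protein that restrains the calcium pump of heart muscle. Wild type (wt) and homozygous (Pln R14del/R14del) hearts were taken at 3 weeks (n = 4 each), 5 weeks (n = 4 each) and 8 weeks (n = 3 wild type, n = 4 homozygous), and heterozygous (Pln wt/R14del) hearts at 8 weeks (n = 4), all without surgery. In the surgery set, wild type male mice were operated on at 12 weeks of age. Hearts were taken 3 days after ischemia-reperfusion, a temporary closure of a coronary artery (n = 4), or 8 weeks after permanent closure, here called infarction (n = 4), from muscle away from the infarct. Their controls were 4 sham-operated hearts, 2 of them aged 12 weeks and 2 aged 20 weeks, used as a single group, so that ischemia-reperfusion and infarction share their controls. The labels do not say which animal each heart came from, and the p-values below reflect only the variation among the libraries of a group, some of which may be technical.

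Glucose enters a heart muscle cell through transporters in its membrane, is trapped as a phosphate by hexokinase, and is split and oxidized to pyruvate by glycolysis, or is stored as glycogen and released again by phosphorylase. Several of these steps have more than 1 enzyme form, each from its own gene: striated muscle uses forms such as Slc2a4, Pfkm, Pgam2, Eno3 and Pygm, while most other cells, fetal tissue and many dividing cells use Slc2a1, Pfkp, Pgam1, Eno1 and Pygb. The adult heart draws most of its energy from fatty acids, and the fetal and the stressed heart are known for a larger share from glucose.

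Each library held between 9402904 and 19320791 counts, and the 33 genes took between 1.27% and 1.73% of them. Levels are given as CPM, a library's counts scaled to the same fixed total in every library. Log2 changes come from edgeR with TMM scaling, a scaling that sets most genes to no change, and are given ± SE with a p-value adjusted by Benjamini-Hochberg over all genes tested. A gene passed, and is said to have risen or fallen, at an adjusted p of at most 0.05. On library totals alone the median of all genes was higher by 0.21 on the log2 scale at 5 weeks, by 0.19 at 8 weeks, by 0.21 after ischemia-reperfusion and by 0.11 after infarction, so a small log2 change can differ in sign from a difference in CPM. The share of mitochondrially encoded counts moved with the groups: it was 19.9% to 21.1% in wild type and 14.6% to 15.9% in homozygous hearts at 5 weeks, 15.2% to 16.5% and 8.27% to 15.5% at 8 weeks, and 23.1% to 26.0% in sham, 18.5% to 21.4% in ischemia-reperfusion and 18.4% to 22.8% in infarction hearts. Its part in the results was not tested. Heart muscle markers were abundant in every group, and 14 skeletal muscle markers summed to between 32.95 CPM (8-week homozygous hearts) and 164.7 CPM (5-week homozygous hearts) in a library. Mybpc2 and Casq1 had the highest mean levels of these markers in every group, Atp2a1 reached 20.3 CPM in 1 heterozygous heart, Mylpf reached 5.34 CPM in 1 homozygous heart of 3 weeks, and Myh1, Myh2 and Myh4 reached at most 0.559 CPM. The part of such RNA in the results was not tested. The libraries of 5 weeks carry another naming scheme in the labels and a lower depth, and each comparison between genotypes was made within 1 age. Exons of Slc2a1, Hk1, Gpi1, Pfkm, Pfkp, Pfkfb1, Pfkfb2, Aldoa, Tpi1, Gapdh, Gys1, Ugp2 and Phkg1 overlap exons of a gene on the opposite strand, and those of Pfkm, Pfkfb2 and Pkm a gene on the same strand, so that part of their counts may belong to that gene.

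In homozygous hearts most of the muscle or adult heart forms in pairs fell and most of their counterparts rose, at both 5 and 8 weeks. Of the 10 muscle or heart forms that were paired with another form, 8 fell and none rose at 5 weeks (median log2 change -0.55), and 9 fell at 8 weeks (median -1.24). Of their 11 counterparts, 10 could be tested at 5 weeks, where 8 rose and 1 fell (median 0.47), and all 11 at 8 weeks, where 9 rose and 0 fell (median 0.85). Aldoa at both ages and Pfkfb2 at 5 weeks were the muscle or heart forms that did not pass. Among the counterparts, Pfkl fell at 5 weeks and did not pass at 8 weeks. Pygb did not pass at either age. Ldha, a muscle subunit, is the counterpart of the heart subunit Ldhb here. Likewise Slc16a3, a lactate carrier of glycolytic cells, is set against Slc16a1, the carrier of the heart. Over all members, 9 of 32 rose and 14 fell at 5 weeks (median -0.11), while 22.3% of all 13323 genes tested rose and 21.4% fell (median -0.0012). The fallen share of members, 43.8%, lay above that of all genes at 5 weeks. At 8 weeks 13 of 33 members (39.4%) rose and 11 (33.3%) fell (median 0.0087), near the shares of all genes, 30.8% and 29% of 14314 (median 0.022). Scaled to library totals, the split at 5 weeks was 11 members risen and 9 fallen, beside 5388 and 1411 of 13323 genes.

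**Figure D1:**
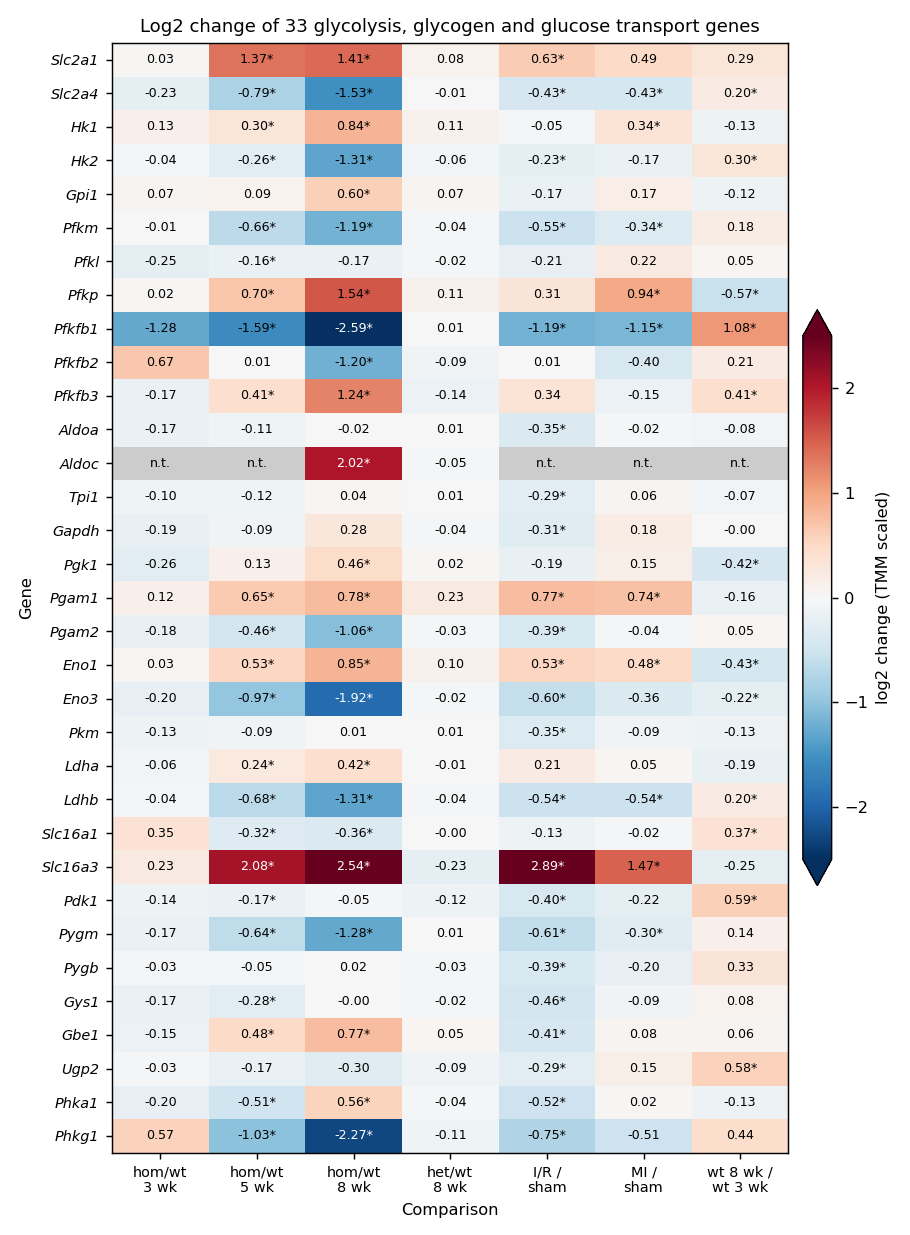
Log2 changes (TMM scaled) of the 33 genes, 1 gene to a line, in the comparisons named on the horizontal axis, with a star where the adjusted p was at most 0.05 and n.t. where the gene was not tested. Blue cells of Slc2a4, Pfkm, Eno3, Ldhb and Pygm lie beside red cells of Slc2a1, Pfkp, Eno1 and Slc16a3 in the columns of homozygous hearts at 5 and 8 weeks, and the columns of 3 weeks and of heterozygous hearts hold no star.

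At 3 weeks 0 of 32 members passed, as did 0% of 13427 genes in either direction (0% higher, 0% lower). 6 members and 1515 genes had an unadjusted p under 0.05 in edgeR. DESeq2 called 57 genes higher and 55 lower there, among them 3 members: Pfkfb1 with a log2 change of -1.28 (adjusted p = 0.00606), Pfkfb2 with 0.67 (adjusted p = 0.0144) and Slc16a1 with 0.35 (adjusted p = 0.0254), whereas limma-voom called 0. Pfkfb1, a gene for a phosphofructokinase-2 that sets the level of an activator of glycolysis, stood at 4.24, 4.46, 4.96 and 6.58 CPM in wild type and at 1.58, 2.81, 1.31 and 2.82 in homozygous hearts of 3 weeks, without overlap. In heterozygous hearts of 8 weeks 0 of 33 members passed, as did 0% of 14314 genes upward and 0% downward. 0 members and 326 genes had an unadjusted p under 0.05 in edgeR, and DESeq2 and limma-voom called 0 genes. The log2 changes of the members in heterozygous hearts lay between -0.23 and 0.23. Homozygous against heterozygous hearts gave 14 members higher and 11 lower, against 32% and 30% of all genes. These libraries of homozygous hearts are the ones compared with the wild type.

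Glucose transport was the first step in which the 2 forms moved apart. Slc2a4 encodes GLUT4, the insulin-regulated transporter of muscle and fat (ENSMUSG00000018566, chromosome 11 from 69942539 to 69948188, GRCm38), and Slc2a1 encodes GLUT1, the transporter of most tissues (ENSMUSG00000028645, chromosome 4 from 119108711 to 119137983). At 8 weeks Slc2a4 stood at 486, 484 and 471 CPM in wild type and at 257, 132, 189 and 154 CPM in homozygous hearts, and at 5 weeks at 397, 392, 389 and 375 against 256, 229.7, 301 and 251 CPM. Every homozygous heart lay below every wild type heart at both ages. Slc2a4 fell at 5 weeks (log2 change -0.79 ± 0.0811, adjusted p = 2.62e-07) and at 8 weeks (log2 change -1.53 ± 0.21, adjusted p = 5.01e-05). Slc2a1 stood at 18.1, 18.6 and 15.8 CPM in wild type and at 42.2, 46.6, 46.3 and 74.5 CPM in homozygous hearts of 8 weeks, with homozygous replicate 4 highest, and at 13.3, 13.1, 11.3 and 9.76 against 33.7, 35.5, 31.5 and 40.0 CPM at 5 weeks. These groups did not overlap either. Slc2a1 rose at 5 weeks (log2 change 1.37 ± 0.108, adjusted p = 8.57e-09) and at 8 weeks (log2 change 1.41 ± 0.175, adjusted p = 2.36e-05). In bulk tissue, less RNA of a gene per cell and fewer cells that express it cannot be told apart, here and in every result that follows. The log2 ratio of Slc2a4 to Slc2a1 counts within a library, which no scaling of libraries touches, averaged 4.78 (4.70 to 4.90) in wild type and 1.80 (1.05 to 2.60) in homozygous hearts of 8 weeks, with the range over hearts in parentheses. Per kilobase of exon, so that genes can be compared, the mean level of Slc2a4 at 8 weeks was 138 CPM per kb in wild type and 52.6 in homozygous hearts, and that of Slc2a1 4.99 and 14.9, so GLUT4 remained the more abundant transcript.

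Hexokinase traps glucose in the cell. Hk2 is the insulin-regulated form of muscle and heart and Hk1 the form of most tissues. Hk2 stood at 379, 407 and 401 CPM in wild type and 185, 125, 173 and 229 CPM in homozygous hearts of 8 weeks, and Hk1 at 224, 213 and 220.4 and 390.2, 432, 466 and 477 CPM. Neither gene overlapped between genotypes, and by CPM per kb Hk2 (66.3 against 25.7 for Hk1) led in wild type hearts while Hk1 (51.7 against 29.8 for Hk2) led in homozygous hearts. Hk2 fell (log2 change -1.31 ± 0.16, adjusted p = 2.02e-05). Hk1 rose (log2 change 0.84 ± 0.0914, adjusted p = 8.2e-06). At 5 weeks both passed with smaller values, Hk2 at -0.26 ± 0.0663, adjusted p = 0.00386 and Hk1 at 0.30 ± 0.0766, adjusted p = 0.0038. In 1 edgeR fit of all 39 libraries Hk1 did not pass at 5 weeks (log2 change 0.25, adjusted p = 0.054). Hk2 overlapped in CPM (263 to 279 in wild type, 235 to 286 in homozygous hearts). With library totals as the scale its log2 change was -0.0506 (adjusted p = 0.544). The change of Hk2 at 8 weeks exceeded that at 5 weeks in a direct test (log2 difference -1.02 ± 0.161, adjusted p = 1.35e-05), as did that of Hk1 (log2 difference 0.57 ± 0.152, adjusted p = 0.00467). Gpi1, which turns glucose phosphate into fructose phosphate and has a single form, stood at 579 to 631 CPM in wild type and 874 to 1130 in homozygous hearts of 8 weeks. It rose (log2 change 0.60 ± 0.101, adjusted p = 0.000251). At 5 weeks its log2 change was 0.0885 ± 0.0635, adjusted p = 0.28. Of the 50-base stretches in Gpi1 transcripts 25.3% also occur in other genes, so part of its count is uncertain.

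Phosphofructokinase, the main control point of glycolysis, is built from muscle (Pfkm), liver (Pfkl) and platelet (Pfkp) subunits. Pfkm stood at 1236, 1236 and 1267 CPM in wild type and 718, 560.1, 589.5 and 554 CPM in homozygous hearts of 8 weeks, and at 934, 1026, 985 and 958 against 720.4, 668, 763 and 702 CPM at 5 weeks. All homozygous hearts were lower than all wild type hearts. Pfkm fell at 5 weeks (log2 change -0.66 ± 0.069, adjusted p = 3.27e-07) and at 8 weeks (log2 change -1.19 ± 0.141, adjusted p = 1.62e-05). Pfkp went the other way, from 73.4, 77.8 and 70.8 CPM to 194, 202, 238 and 339 CPM at 8 weeks and from 106, 95.7, 85.4 and 96.9 CPM to 193, 181, 152 and 193 CPM at 5 weeks, with homozygous replicate 4 highest at 8 weeks. It rose at 5 weeks (log2 change 0.70 ± 0.0791, adjusted p = 8.4e-07) and at 8 weeks (log2 change 1.54 ± 0.16, adjusted p = 5.91e-06). 17.1% of its 50-base stretches occur in Pitrm1, its neighbour on the other strand. The mean log2 ratio of Pfkm to Pfkp was 4.08 (3.99 to 4.16) in wild type and 1.34 (0.71 to 1.89) in homozygous hearts of 8 weeks, a difference of -2.73 ± 0.249, and at 5 weeks the difference was -1.36 ± 0.139, both without overlap. Pfkl passed at 5 weeks with -0.16 ± 0.0637, adjusted p = 0.0449, but without 5-week wild type replicate 1, 3 or 4 or 5-week homozygous replicate 1, 2 or 3 the adjusted p was 0.0581 to 0.161, and with library totals as the scale its sign turned (0.0432). At 8 weeks Pfkl overlapped (153 to 167 CPM in wild type, 114 to 189 in homozygous hearts) with a log2 change of -0.17 ± 0.168, adjusted p = 0.409. Pfkm remained the leading subunit by CPM per kb, with 181 against 23.7 for Pfkl and 18.2 for Pfkp in homozygous hearts of 8 weeks. Exon lengths were 6675 bases for Pfkl and 13401 for Pfkp, while their longest coding transcripts hold 3681 and 4096 stretches of 50 bases. In those hearts mean CPM was 605 for Pfkm, 158 for Pfkl and 243 for Pfkp, so the order of Pfkl and Pfkp depends on the length used.

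Phosphofructokinase-2 enzymes make or remove fructose 2,6-bisphosphate, the activator of phosphofructokinase. Pfkfb2 is the heart form, Pfkfb1 the liver and muscle form, and Pfkfb3 the form of dividing and inflammatory cells with the strongest tilt toward making the activator. Pfkfb2 stood at 113, 138 and 138 CPM in wild type and 74.2, 44.3, 71.1 and 59.5 CPM in homozygous hearts of 8 weeks, without overlap. It fell (log2 change -1.20 ± 0.18, adjusted p = 9.45e-05). At 5 weeks it did not pass (log2 change 0.00764 ± 0.0982, adjusted p = 0.958), and the 2 effects differed in a direct test (log2 difference -1.19 ± 0.28, adjusted p = 0.00172). 25.1% of its 50-base stretches occur in Gm29427, which overlaps it. Pfkfb3 stood at 16.5, 19.6 and 16.5 CPM in wild type and 37.4, 67.2, 58.4 and 23.6 CPM in homozygous hearts of 8 weeks. It rose (log2 change 1.24 ± 0.278, adjusted p = 0.00188), with homozygous replicate 4 the lowest and still above all wild type hearts. Its rise at 5 weeks, 0.41 ± 0.139, adjusted p = 0.0214, was less stable, since without 5-week wild type replicate 1 or 3 or 5-week homozygous replicate 2 the adjusted p was 0.05 to 0.108. Pfkfb1 stood at 4.77 to 5.98 CPM in wild type hearts of 5 weeks, where Pfkfb2 led by CPM per kb (18.2 against 1.38 for Pfkfb1 and 1.86 for Pfkfb3), and fell at 5 weeks (log2 change -1.59 ± 0.229, adjusted p = 1.48e-05) and at 8 weeks (log2 change -2.59 ± 0.359, adjusted p = 5.35e-05). In homozygous hearts of 8 weeks it reached at most 2.63 CPM. The log2 ratio of Pfkfb2 to Pfkfb3 differed between homozygous and wild type hearts by 0.85 ± 0.248 (± SE) at 3 weeks, without overlap, by -0.40 ± 0.296 at 5 weeks, with overlap, and by -2.38 ± 0.436 at 8 weeks, without overlap.

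The middle steps of glycolysis, which use mostly single forms in the heart, mostly did not pass the test in homozygous hearts. Aldoa, the muscle aldolase that splits the sugar, stood at 2818 to 3082 CPM in wild type and 2837 to 3792 in homozygous hearts of 8 weeks, with log2 changes of -0.11 ± 0.077, adjusted p = 0.28 at 5 weeks and -0.0162 ± 0.116, adjusted p = 0.914 at 8 weeks. Aldoc, the brain aldolase, had 176 counts over all 39 libraries, and its rise at 8 weeks (log2 change 2.02 ± 0.628, adjusted p = 0.014) was to 0.315 to 1.03 CPM from 0.0686 to 0.272 CPM. Without 8-week wild type replicate 2 or 3 the adjusted p was 0.0556 to 0.0625, and it could not be tested at 3 or 5 weeks or in the surgery set. The log2 ratio of Aldoa to Aldoc differed by -0.28 ± 0.655 at 5 weeks and by -1.96 ± 0.638 at 8 weeks, with overlap of the genotypes at both ages. Tpi1, triose phosphate isomerase, gave a log2 change of -0.12 ± 0.0625, adjusted p = 0.145 at 5 weeks and 0.0446 ± 0.112, adjusted p = 0.747 at 8 weeks. Gapdh, which makes the first energy-rich phosphate of the pathway and often serves as a reference gene, gave a log2 change of -0.0937 ± 0.0739, adjusted p = 0.328 and 0.28 ± 0.127, adjusted p = 0.0701, while against heterozygous hearts it passed (log2 change 0.32 ± 0.117, adjusted p = 0.0289), though without heterozygous replicate 1, 3 or 4 or 8-week homozygous replicate 3 or 4 the adjusted p was 0.0559 to 0.0818. With library totals as the scale the 5-week log2 changes of Aldoa, Tpi1 and Gapdh turned to 0.10, 0.0896 and 0.11. Of Gapdh's 50-base stretches 82.5% occur in other genes, of Aldoa's 13.5%, of Tpi1's 7.51% and of Pkm's 34.4%. Pkm, pyruvate kinase, whose 2 splice forms one count per gene cannot separate, gave a log2 change of -0.0906 ± 0.0684, adjusted p = 0.306 and 0.00869 ± 0.116, adjusted p = 0.954, with 1130 to 1175 CPM in wild type and 1108 to 1525 CPM in homozygous hearts of 8 weeks. Pgk1, phosphoglycerate kinase, was an exception at 8 weeks, where it stood at 112, 122 and 122 CPM in wild type and 163, 169.7, 199.5 and 196 CPM in homozygous hearts. It rose (log2 change 0.46 ± 0.0832, adjusted p = 0.000448), without overlap, although 68.0% of its 50-base stretches are shared.

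Phosphoglycerate mutase showed the split between forms on genes of very unequal level: Pgam2 is the muscle subunit and Pgam1 the subunit of most tissues. Pgam2 stood at 527, 552 and 598 CPM in wild type and 374, 227, 274 and 312 CPM in homozygous hearts of 8 weeks, and Pgam1 at 8.21, 6.51 and 8.78 and 13.2, 11.4, 12.6 and 23.3 CPM. The genotypes did not overlap for either gene, and Pgam1 was highest in homozygous replicate 4. Pgam2 fell (log2 change -1.06 ± 0.166, adjusted p = 0.000141) and Pgam1 rose (log2 change 0.78 ± 0.243, adjusted p = 0.0138). For Pgam1, without 8-week wild type replicate 2 the adjusted p was 0.0641, and with a block on replicate number it was 0.0527. At 5 weeks Pgam1 stood at 9.15, 10.6, 11.2 and 10.5 CPM in wild type and 18.6, 19.1, 17.4 and 19.9 CPM in homozygous hearts. It rose (log2 change 0.65 ± 0.108, adjusted p = 7.19e-05). Pgam2 fell (log2 change -0.46 ± 0.0843, adjusted p = 0.000212) with CPM that overlapped (493 to 577 and 401 to 509). The log2 ratio of Pgam2 to Pgam1 averaged 5.67 (5.53 to 5.82) in wild type and 4.56 (4.35 to 4.77) in homozygous hearts of 5 weeks, without overlap. By CPM per kb Pgam2 exceeded Pgam1 in every group, with 353 against 7.65 in homozygous hearts of 8 weeks, and 41.5% of the 50-base stretches of Pgam1 are shared with other genes and none of those of Pgam2.

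The 250 bases before the start sites of Pgam2, Pgam1 and Pgk1 are shown because Pgam2 and Pgam1 moved in opposite directions and Pgk1 rose with Pgam1 at 8 weeks. Each is shown with a motif that its window holds. Eno3 and Eno1, which also moved in opposite directions, held no match to either motif described here. Sequences are those of RefSeq on GRCm38.p6, 5′ to 3′ on the gene's strand, from chr11:5803797-5804046 (minus strand), chr19:41911621-41911870 (plus strand) and chrX:106186850-106187099 (plus strand). Capitals mark a match to the MEF2 motif, the element bound by a family of muscle transcription factors, in Pgam2, and matches to ACGTG, the core of sites bound by hypoxia-inducible factors, in Pgam1 and Pgk1, on either strand.
Pgam2: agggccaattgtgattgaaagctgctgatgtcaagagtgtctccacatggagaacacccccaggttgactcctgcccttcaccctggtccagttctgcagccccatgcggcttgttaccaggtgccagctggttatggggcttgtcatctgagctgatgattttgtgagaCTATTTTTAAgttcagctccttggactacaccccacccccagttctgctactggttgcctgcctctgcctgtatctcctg
Pgam1: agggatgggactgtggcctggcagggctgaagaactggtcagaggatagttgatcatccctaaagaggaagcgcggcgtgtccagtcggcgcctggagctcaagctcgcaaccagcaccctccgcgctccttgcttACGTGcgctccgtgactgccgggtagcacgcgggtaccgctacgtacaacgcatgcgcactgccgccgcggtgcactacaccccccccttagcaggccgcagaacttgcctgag
Pgk1: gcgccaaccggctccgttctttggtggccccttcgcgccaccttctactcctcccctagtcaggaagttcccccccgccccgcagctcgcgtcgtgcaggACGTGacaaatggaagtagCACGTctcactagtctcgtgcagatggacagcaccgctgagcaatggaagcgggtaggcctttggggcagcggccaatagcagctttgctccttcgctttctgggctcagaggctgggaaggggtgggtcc

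Counted from the start site, the offset of the match was -80 bases in Pgam2, -114 in Pgam1, and -150 and -131 in Pgk1. Among 51 start sites of the 32 members found in the table, 37.25% of windows held ACGTG on either strand, compared with 16.57% of 32851 windows of all genes. CACGTG, which contains ACGTG, was in 9.804% and 6.021%, and the MEF2 motif in 3.922% and 2.919%. ACGTG lay before members of either direction at 5 weeks. Of the members that rose, it was found before Slc2a1, Pfkfb3, Pgam1, Ldha and Slc16a3 and not before Hk1, Pfkp, Eno1 and Gbe1. Of those that fell, it was found before Hk2, Pfkm, Slc16a1 and Pygm. The fallen members without it were Pfkl, Pfkfb1, Pgam2, Eno3, Ldhb, Pdk1, Gys1, Phka1 and Phkg1. The MEF2 motif lay before Pgam2 and Pfkfb1, which fell, and before no other member with an entry. Those without it include Hk2, Pfkm, Eno3, Ldhb and Pygm, which also fell, and every member that rose. Start sites of 1 gene can overlap, and a match describes letters in a window, not binding. Slc2a4 had no entry.

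Enolase, the next step, showed the same split. Eno3, the muscle form (ENSMUSG00000060600, chromosome 11 from 70657202 to 70662513), stood at 1402, 1480 and 1462 CPM in wild type and 518, 331, 452 and 395 CPM in homozygous hearts of 8 weeks, and at 1291, 1331, 1389 and 1278 against 792, 663, 921 and 740.3 CPM at 5 weeks. Each homozygous heart lay below the wild type range at both ages. Eno3 fell at 5 weeks (log2 change -0.97 ± 0.0915, adjusted p = 8.8e-08) and at 8 weeks (log2 change -1.92 ± 0.17, adjusted p = 2.03e-06). The fall at 8 weeks exceeded that at 5 weeks in a direct test (log2 difference -0.92 ± 0.197, adjusted p = 0.000587). Eno1, the form of most tissues and of the fetal heart (ENSMUSG00000063524, chromosome 4 from 150236721 to 150248879), stood at 88.4, 76.7 and 92.3 CPM in wild type and 136, 150.2, 182 and 226 CPM in homozygous hearts of 8 weeks, without overlap. It rose at 5 weeks (log2 change 0.53 ± 0.0681, adjusted p = 4.13e-06) and at 8 weeks (log2 change 0.85 ± 0.131, adjusted p = 0.000125). Eno1 shares 72.2% of its 50-base stretches with other genes, above all Eno1b, so its level and the ratio are uncertain, and Eno3 shares none. The log2 ratio of Eno3 to Eno1 was 4.08 (3.98 to 4.27) in wild type and 1.29 (0.80 to 1.93) in homozygous hearts of 8 weeks, and 3.95 (3.81 to 4.08) and 2.44 (2.32 to 2.73) at 5 weeks.

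**Figure D2:**
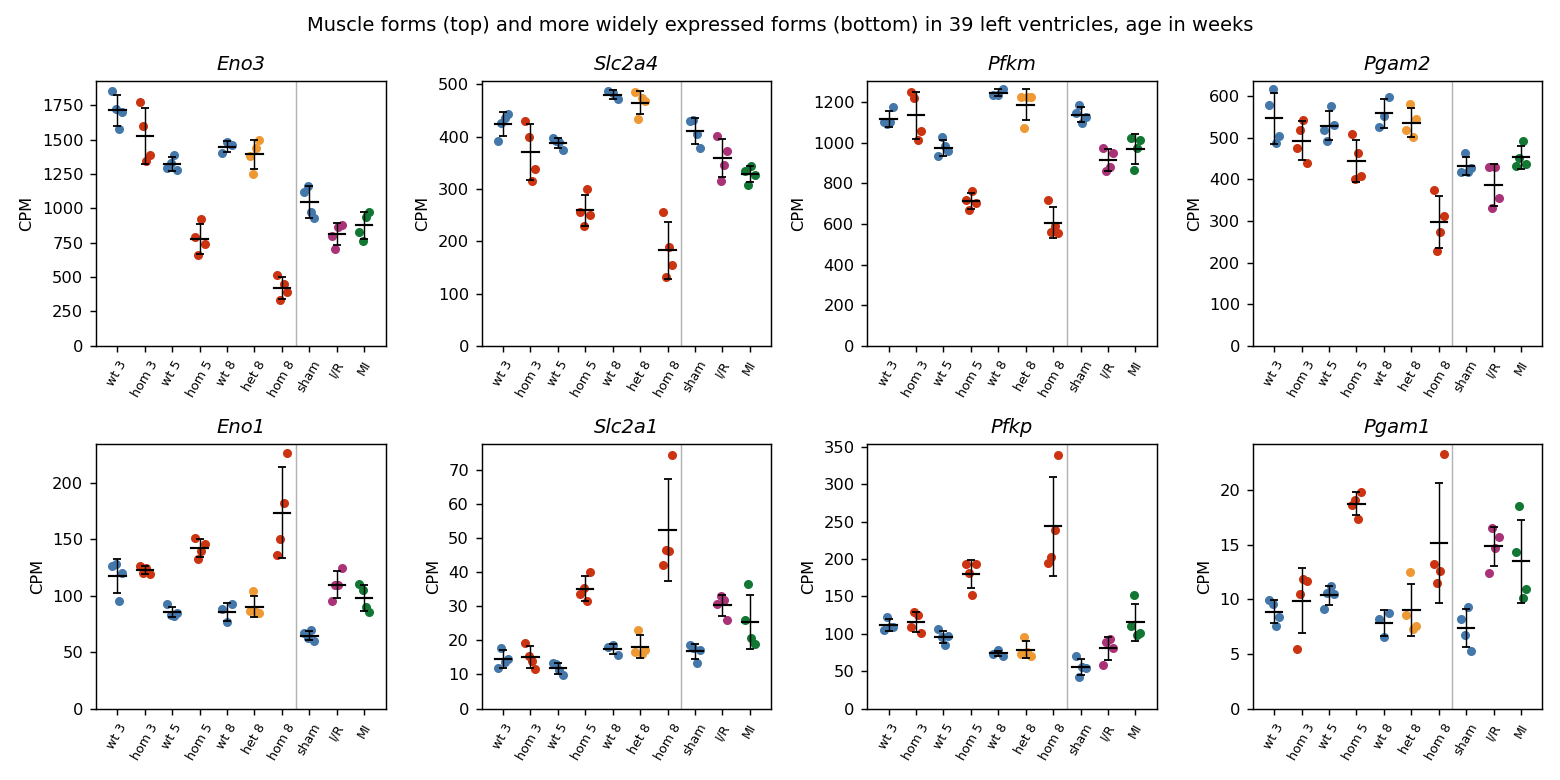
CPM of muscle forms (top) and of the more widely used forms (bottom) in each of the 39 libraries, by group and age in weeks, on axes that start at 0, with bars for mean ± SD. In the 8-week homozygous hearts Eno3 lies between 331 and 518 CPM, below all wild type hearts, and Eno1 between 136 and 226 CPM, above them.

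Lactate dehydrogenase and the lactate carriers followed. Ldhb is the heart subunit, known for oxidizing lactate, and Ldha the muscle subunit, known for making it. Ldhb stood at 1269, 1259 and 1323 CPM in wild type and 695, 486, 536 and 569 CPM in homozygous hearts of 8 weeks, and Ldha at 574, 576 and 589 and 763, 759, 915 and 1044 CPM. The genotypes did not overlap for either subunit. Of the 50-base stretches of Ldhb 27.0% occur in other genes, and of those of Ldha 16.65%, so part of their counts is uncertain. The log2 ratio of Ldhb to Ldha was above 0 in each wild type heart and below 0 in each homozygous heart of 8 weeks, with means of 1.15 (1.13 to 1.17) and -0.61 (-0.88 to -0.13). Ldhb fell at 5 weeks (log2 change -0.68 ± 0.0814, adjusted p = 1.73e-06) and at 8 weeks (log2 change -1.31 ± 0.147, adjusted p = 1.05e-05). Ldha rose at 5 weeks (log2 change 0.24 ± 0.068, adjusted p = 0.00677) and at 8 weeks (log2 change 0.42 ± 0.111, adjusted p = 0.00556). In 1 edgeR fit of all 39 libraries Ldha did not pass at 5 weeks (log2 change 0.20, adjusted p = 0.056). By CPM per kb Ldhb led at 8 weeks, with 364 against 263 in homozygous and 818 against 175 in wild type hearts. Exon lengths were 3310 bases for Ldha and 1570 for Ldhb, while their longest coding transcripts hold 1766 and 1255 stretches of 50 bases. In those homozygous hearts mean CPM was 870 for Ldha and 572 for Ldhb, so which subunit led there depends on the length used. Slc16a1 encodes MCT1, the lactate carrier of the heart, and Slc16a3 encodes MCT4, a carrier known for lactate export from glycolytic cells (ENSMUSG00000025161, chromosome 11 from 120948480 to 120960868). Slc16a3 stood at 1.52, 1.87 and 2.47 CPM in wild type and 6.30, 10.7, 12.6 and 21.9 CPM in homozygous hearts of 8 weeks, and at 2.06, 1.94, 1.53 and 2.17 against 9.26, 8.57, 8.07 and 11.7 CPM at 5 weeks. It had the largest log2 rise of the 33 genes at both ages, with 2.08 ± 0.201, adjusted p = 1.12e-07 at 5 weeks and 2.54 ± 0.334, adjusted p = 3.54e-05 at 8 weeks, from a low level, with homozygous replicate 4 highest at 8 weeks. Slc16a1 fell at 5 weeks (log2 change -0.32 ± 0.0644, adjusted p = 0.000529) and at 8 weeks (log2 change -0.36 ± 0.118, adjusted p = 0.0179), with CPM that overlapped (205 to 242 and 172 to 219 at 8 weeks). Without 8-week wild type replicate 3 the adjusted p was 0.0588, and with library totals as the scale neither age passed (adjusted p = 0.146 and 0.0683). Pdk1, a kinase that inhibits pyruvate dehydrogenase, gave a log2 change of -0.17 ± 0.0636, adjusted p = 0.0383 at 5 weeks. Without 5-week wild type replicate 1, 2 or 4 or 5-week homozygous replicate 1 or 3 the adjusted p was 0.0638 to 0.116. With library totals the sign turned at 5 weeks (0.0382). At 8 weeks the log2 change of Pdk1 was -0.0513 ± 0.113, adjusted p = 0.713.

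**Figure D3:**
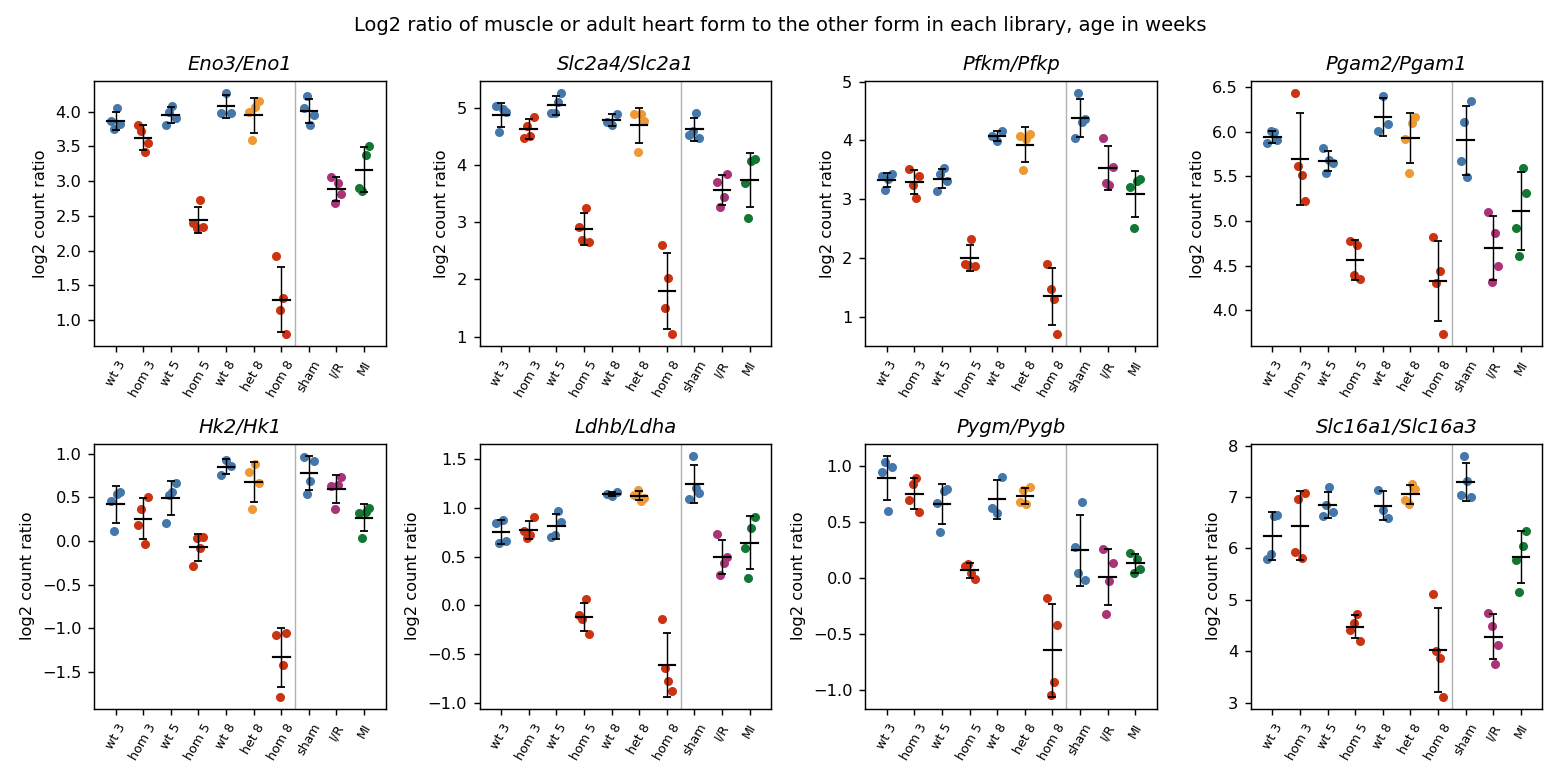
Log2 count ratio of a muscle or adult heart form to its counterpart in each library, by group and age in weeks; a library's scaling cancels in the ratio. Bars give mean ± SD. In these 8 of the 11 pairs the homozygous hearts of 5 and 8 weeks lie below the wild type of that age, and at 3 weeks the genotypes overlap. The ratios of Pfkm to Pfkl, Aldoa to Aldoc and Pfkfb2 to Pfkfb3 are not drawn. Among them the genotypes overlapped for Aldoa to Aldoc at 5 and 8 weeks and for Pfkfb2 to Pfkfb3 at 5 weeks. The ratio of Pfkfb2 to Pfkfb3 did not overlap at 3 weeks.

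Among glycogen genes, the muscle phosphorylase, the subunits of its kinase and the branching enzyme changed at both ages. Pygm, which releases glucose phosphate from glycogen in muscle (ENSMUSG00000032648, chromosome 19 from 6384399 to 6398459), stood at 1522, 1576 and 1485 CPM in wild type and 922, 567, 589.8 and 701 CPM in homozygous hearts of 8 weeks, and at 1086, 1069, 1030 and 1066 against 782, 742, 837 and 782 CPM at 5 weeks. The genotypes did not overlap at either age. Pygm fell at 5 weeks (log2 change -0.64 ± 0.0678, adjusted p = 3.63e-07) and at 8 weeks (log2 change -1.28 ± 0.183, adjusted p = 6.82e-05). Pygb, the brain phosphorylase that the heart also expresses, overlapped (798 to 1054 and 940.2 to 1172 CPM at 8 weeks), with log2 changes of -0.0519 ± 0.0887, adjusted p = 0.669 and 0.0154 ± 0.135, adjusted p = 0.93. By CPM per kb Pygm led over Pygb in wild type hearts of 8 weeks (475 against 197), while homozygous hearts had 216 and 223. Phkg1, the catalytic subunit of muscle phosphorylase kinase, stood at 22.6, 28.1 and 31.3 CPM in wild type and 8.41, 5.72, 5.87 and 4.92 CPM in homozygous hearts of 8 weeks, without overlap. It fell at 5 weeks (log2 change -1.03 ± 0.149, adjusted p = 1.54e-05) and at 8 weeks (log2 change -2.27 ± 0.227, adjusted p = 4.66e-06). 25.0% of its 50-base stretches occur elsewhere, most often in its neighbour Sumf2. Phka1, a regulatory subunit of the same kinase, changed in opposite directions at the 2 ages. It stood at 69.0, 49.9, 48.6 and 48.7 CPM in wild type and 42.0, 43.0, 48.3 and 42.0 CPM in homozygous hearts of 5 weeks. It fell (log2 change -0.51 ± 0.107, adjusted p = 0.00073). At 8 weeks Phka1 stood at 48.4, 55.5 and 59.2 CPM in wild type and 111, 71.0, 90.3 and 81.2 CPM in homozygous hearts, where it rose (log2 change 0.56 ± 0.165, adjusted p = 0.0108). The genotypes did not overlap at either age. The 2 effects differed (log2 difference 1.09 ± 0.215, adjusted p = 0.000243). For the rise at 8 weeks, without 8-week wild type replicate 1 the adjusted p was 0.0526, and without 8-week homozygous replicate 1 the log2 change was 0.36. Gbe1, the branching enzyme that adds side chains to glycogen, stood at 52.9, 54.0 and 52.8 CPM in wild type and 85.5, 95.3, 111 and 116 CPM in homozygous hearts of 8 weeks, without overlap. It rose at 5 weeks (log2 change 0.48 ± 0.066, adjusted p = 9.04e-06) and at 8 weeks (log2 change 0.77 ± 0.0933, adjusted p = 1.91e-05). Gys1, the glycogen synthase of muscle, fell at 5 weeks (log2 change -0.28 ± 0.0764, adjusted p = 0.0065), where its CPM overlapped (125 to 149 and 118 to 139) and the adjusted p was 0.427 with library totals as the scale, and gave a log2 change of -0.00318 ± 0.12, adjusted p = 0.984 at 8 weeks. Ugp2, which makes the activated glucose used for glycogen, gave a log2 change of -0.17 ± 0.0748, adjusted p = 0.0672 and -0.30 ± 0.19, adjusted p = 0.186.

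**Figure D4:**
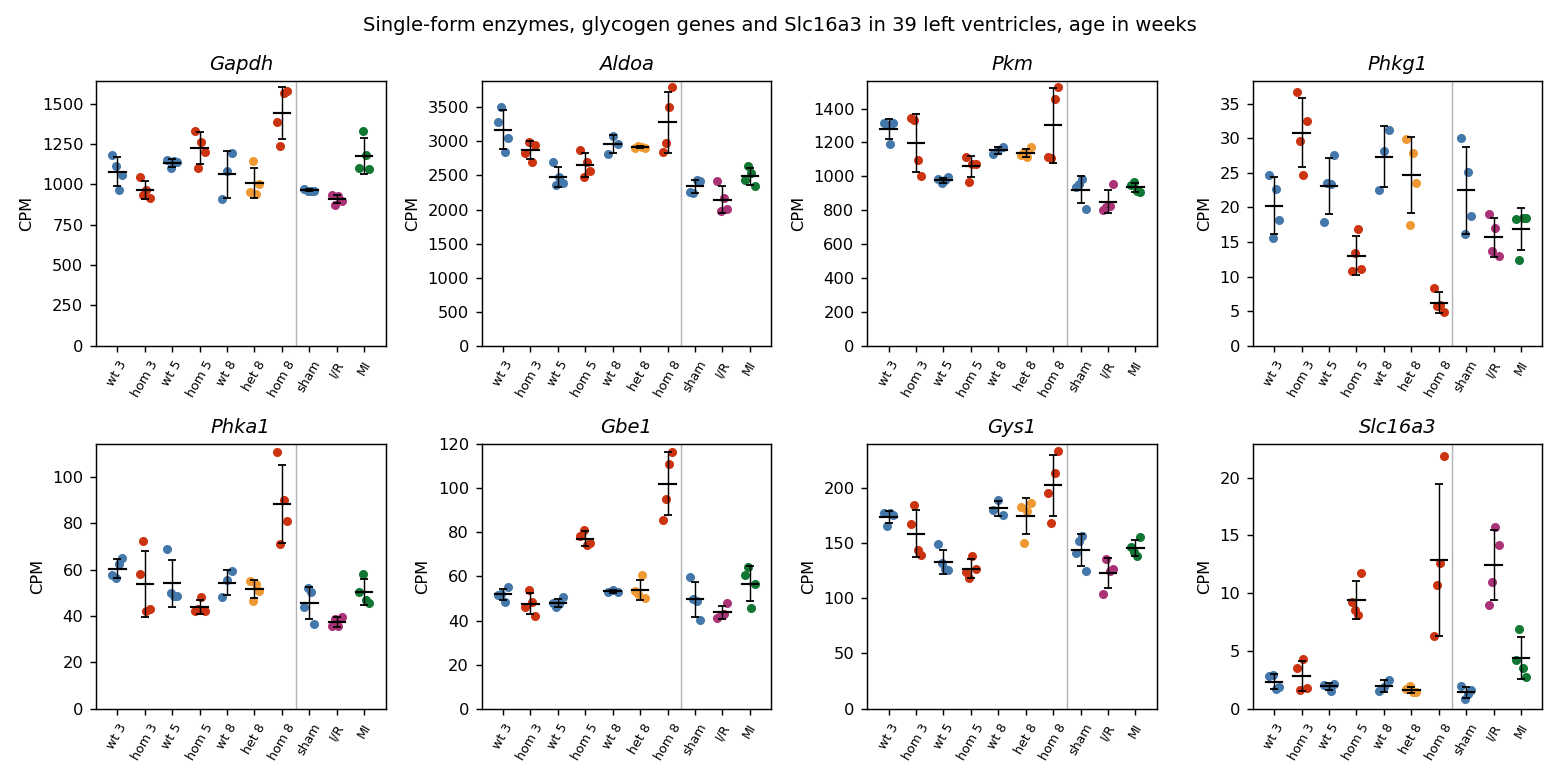
CPM of single-form enzymes, glycogen genes and Slc16a3 in each of the 39 libraries, by group and age in weeks, on axes that start at 0, with bars for mean ± SD. Slc16a3 lies between 6.30 and 21.9 CPM in the 8-week homozygous and between 8.93 and 15.7 CPM in the ischemia-reperfusion hearts, against 1.52 to 2.47 CPM in the 8-week wild type and 0.851 to 1.97 CPM in the sham hearts.

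Differences between ages were tested as interactions in 1 fit of all 39 libraries. Between 3 and 5 weeks the genotype effect moved upward for 6 and downward for 7 of the 33 members, against 9.99% and 11% of 15258 genes. The upward ones were Slc2a1, Pfkp, Pgk1, Eno1, Slc16a3 and Gbe1, and the downward ones Slc2a4, Pfkm, Eno3, Ldhb, Slc16a1, Pygm and Phkg1. The largest shifts were those of Slc16a3 (log2 difference 1.80 ± 0.434, adjusted p = 0.00316) and Phkg1 (log2 difference -1.65 ± 0.301, adjusted p = 0.000181). Phkg1 stood at 24.6, 15.6, 22.7 and 18.1 CPM in wild type and 36.7, 29.6, 24.6 and 32.4 CPM in homozygous hearts of 3 weeks, where each homozygous heart was higher, the nearest by a small margin. Slc16a1 likewise was 158, 177, 173 and 188 CPM in wild type and 213, 208, 242 and 245 CPM in homozygous hearts of 3 weeks, without overlap and opposite to its later fall. Its effect shifted (log2 difference -0.71 ± 0.125, adjusted p = 0.000114). Of the other shifts, some hung on single libraries: for Slc2a4 without 3-week wild type replicate 1 or 2 or 3-week homozygous replicate 1 or 2 or 5-week wild type replicate 1 or 5-week homozygous replicate 1, 2 or 4 the adjusted p was 0.0534 to 0.0793. For Pgk1 without 3-week wild type replicate 2 or 4 or 3-week homozygous replicate 3 or 4 or 5-week wild type replicate 2 or 4 or 5-week homozygous replicate 1, 3 or 4 the adjusted p was 0.0512 to 0.0968. For Pygm without 3-week wild type replicate 2 or 3-week homozygous replicate 2 or 5-week homozygous replicate 2 the adjusted p was 0.0513 to 0.0543. Between 5 and 8 weeks 6 members moved upward and 9 downward, against 14.3% and 13.5% of all genes. 8 of the 10 muscle or heart forms in pairs were among those that moved downward, with shifts from -0.51 for Pfkm to -1.19 for Pfkfb2. Slc2a1, Eno1, Slc16a3 and Gbe1, whose shifts lay between 0.0708 and 0.49, did not pass. For Gapdh without 8-week wild type replicate 1 the adjusted p was 0.0993. For Pgk1 without 5-week wild type replicate 1 or 5-week homozygous replicate 2 or 8-week wild type replicate 1 or 3 or 8-week homozygous replicate 3 the adjusted p was 0.053 to 0.0946. For Pgam2 without 8-week homozygous replicate 2 the adjusted p was 0.051. The 5-week libraries hold fewer counts than those of 3 and 8 weeks, and age and depth cannot be told apart in these shifts.

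After ischemia-reperfusion 8 of the 10 muscle or heart forms in pairs fell (median log2 change -0.41), on the TMM scale and against all 4 shams. The fall was not particular to them, since 10 of the 12 members in no pair also fell (median -0.38). Of the 10 counterparts tested 4 rose and 1 fell (median 0.33). Of 32 members 4 rose and 19 (59.4%) fell (median -0.30), while 16.9% of 13611 genes rose and 14.1% fell (median -0.023). The 4 that rose were Slc2a1, Pgam1, Eno1 and Slc16a3. This count rests on the scale and on the controls. With library totals as the scale 6 members rose and 6 fell, beside 4189 and 431 of 13611 genes. With only the 2 shams aged 12 weeks 3 members rose and 5 fell, beside 1456 and 680 of 14122 genes. With those 2 shams Pgam1, Eno1 and Slc16a3 still rose and Pfkm, Eno3, Ldhb, Pygm and Phkg1 still fell. On library totals Pfkm, Eno3, Ldhb, Pygm, Phkg1 and Pfkfb1 still fell. Slc16a3 stood at 1.97, 0.851, 1.28 and 1.58 CPM in sham and 8.93, 10.9, 15.7 and 14.2 CPM in ischemia-reperfusion hearts, a log2 rise of 2.89 ± 0.291, adjusted p = 5.61e-06, and Eno1 at 67.2, 62.4, 69.2 and 60.1 and 95.2, 109, 109.9 and 125 CPM, a log2 rise of 0.53 ± 0.0913, adjusted p = 0.000488. Neither gene overlapped with sham. Pfkm stood at 1147, 1184, 1099 and 1126 CPM in sham and 972, 858, 881 and 948 CPM in ischemia-reperfusion hearts. It fell (log2 change -0.55 ± 0.0904, adjusted p = 0.000365). Pygm fell from 1194, 1266, 1266 and 1237 to 1039, 924, 882 and 961 CPM (log2 change -0.61 ± 0.0857, adjusted p = 8.97e-05). Both were lower in each injured heart than in each sham. Eno3 fell (log2 change -0.60 ± 0.122, adjusted p = 0.00177), Ldhb (log2 change -0.54 ± 0.11, adjusted p = 0.00177) and Phkg1 (log2 change -0.75 ± 0.195, adjusted p = 0.00866). Pgam1 rose (log2 change 0.77 ± 0.192, adjusted p = 0.00674) to 12.4 to 16.6 CPM from 5.25 to 9.26 CPM. Slc2a1 rose (log2 change 0.63 ± 0.162, adjusted p = 0.00799) and Slc2a4 fell (log2 change -0.43 ± 0.0936, adjusted p = 0.00295). With the 2 shams of 12 weeks the adjusted p was 0.0745 and 0.0554. With library totals Slc2a4 gave -0.20 (adjusted p = 0.088). Gbe1, which rose in homozygous hearts, fell here (log2 change -0.41 ± 0.113, adjusted p = 0.0116), with CPM that overlapped (40.4 to 59.8 in sham, 41.3 to 48.1 after injury), and did not pass with library totals (adjusted p = 0.266).

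Among other members that fell were Aldoa (log2 change -0.35 ± 0.0927, adjusted p = 0.00949), Tpi1 (log2 change -0.29 ± 0.083, adjusted p = 0.015), Gapdh (log2 change -0.31 ± 0.0806, adjusted p = 0.00844), Pkm (log2 change -0.35 ± 0.0903, adjusted p = 0.00894), Gys1 (log2 change -0.46 ± 0.106, adjusted p = 0.00393) and Pdk1 (log2 change -0.40 ± 0.0942, adjusted p = 0.00437). With library totals as the scale their log2 changes lay between -0.23 and -0.0586 and none of the 6 passed. In CPM Gapdh was just below sham (957 to 972 in sham and 875 to 932 after injury), and the other 5 overlapped. Pfkfb1 fell (log2 change -1.19 ± 0.287, adjusted p = 0.00554), Pgam2 (log2 change -0.39 ± 0.106, adjusted p = 0.0111), Phka1 (log2 change -0.52 ± 0.113, adjusted p = 0.00272), Hk2 (log2 change -0.23 ± 0.0698, adjusted p = 0.0205), Pygb (log2 change -0.39 ± 0.14, adjusted p = 0.0455) and Ugp2 (log2 change -0.29 ± 0.0983, adjusted p = 0.0355). Of these, Pgam2, Phka1, Hk2, Pygb and Ugp2 did not pass on library totals. Single hearts also decided some calls: for Hk2 without ischemia-reperfusion replicate 3 or 12-week sham replicate 1 or 20-week sham replicate 2 the adjusted p was 0.0501 to 0.063. For Tpi1 without 20-week sham replicate 1 the adjusted p was 0.0549. For Pygb without ischemia-reperfusion replicate 1, 3 or 4 or 20-week sham replicate 1 or 12-week sham replicate 2 the adjusted p was 0.0931 to 0.155. For Ugp2 without ischemia-reperfusion replicate 1 or 4 or 12-week sham replicate 1 or 20-week sham replicate 2 the adjusted p was 0.0524 to 0.131. The members that did not pass were Hk1, Gpi1, Pfkl, Pfkp, Pfkfb2, Pfkfb3, Pgk1, Ldha and Slc16a1, with log2 changes from -0.21 for Pfkl to 0.34 for Pfkfb3.

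After infarction 5 of 32 members rose and 5 fell (median -0.021), against 6.62% and 4.77% of all genes (median -2.28e-05). Hk1, Pfkp, Pgam1, Eno1 and Slc16a3 rose. Slc2a4, Pfkm, Pfkfb1, Ldhb and Pygm fell. The number hung on single hearts: 6 members passed without infarction replicate 1, 6 without infarction replicate 2, and 5 without 20-week sham replicate 1. Over all genes 592 rose and 365 fell, 426 and 237, and 504 and 285 in those runs. With library totals as the scale 9 members rose and 3 fell, beside 1406 and 317 of 13611 genes. Pfkp stood at 70.0, 42.3, 55.0 and 54.9 CPM in sham and 111, 152, 97.9 and 100.5 CPM in infarction hearts, without overlap. It rose (log2 change 0.94 ± 0.158, adjusted p = 0.00207). Slc16a3 stood at 4.17, 6.92, 3.55 and 2.73 CPM after infarction, above all shams (0.851 to 1.97 CPM), and rose (log2 change 1.47 ± 0.31, adjusted p = 0.00772). Eno1 rose (log2 change 0.48 ± 0.0914, adjusted p = 0.00432). Infarction replicate 2 was the highest for Pfkp, Slc16a3, Slc2a1, Hk1 and Pgam1, and the lowest for Pfkm, Eno3 and Ldhb. Ldhb stood at 1097, 1215, 1149 and 1190 CPM in sham and 848, 736, 909 and 935 CPM in infarction hearts. It fell (log2 change -0.54 ± 0.11, adjusted p = 0.00607). Slc2a4 stood at 431, 431, 405 and 379 and 334, 308, 344 and 328 CPM. It fell (log2 change -0.43 ± 0.0937, adjusted p = 0.00898). Neither gene overlapped with sham there. Pfkm fell (log2 change -0.34 ± 0.0902, adjusted p = 0.026), but without infarction replicate 1 or 2 or 20-week sham replicate 1 the adjusted p was 0.0576 to 0.0871. The same held for Pfkfb1 (log2 change -1.15 ± 0.29, adjusted p = 0.0204; without 20-week sham replicate 1 the adjusted p was 0.076) and Pygm (log2 change -0.30 ± 0.0854, adjusted p = 0.0377; without infarction replicate 1, 2 or 3 or 20-week sham replicate 1 or 2 the adjusted p was 0.0694 to 0.12). For Hk1 (log2 change 0.34 ± 0.106, adjusted p = 0.0484) without infarction replicate 1, 2 or 3 or 12-week sham replicate 1 or 2 or 20-week sham replicate 1 or 2 the adjusted p was 0.0504 to 0.169. For Pgam1 (log2 change 0.74 ± 0.194, adjusted p = 0.0246) without infarction replicate 1 or 2 or 20-week sham replicate 1 or 12-week sham replicate 2 the adjusted p was 0.0598 to 0.0963. With only the 20-week shams neither Hk1 nor Pgam1 passed (adjusted p = 0.319 and 0.134), and with library totals as the scale neither Pfkm nor Pygm did (adjusted p = 0.0619 and 0.107). Eno3 (log2 change -0.36 ± 0.122, adjusted p = 0.067) and Slc2a1 (log2 change 0.49 ± 0.163, adjusted p = 0.067) did not pass, and Pgam2 gave a log2 change of -0.0410 ± 0.106, adjusted p = 0.848.

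**Figure D5:**
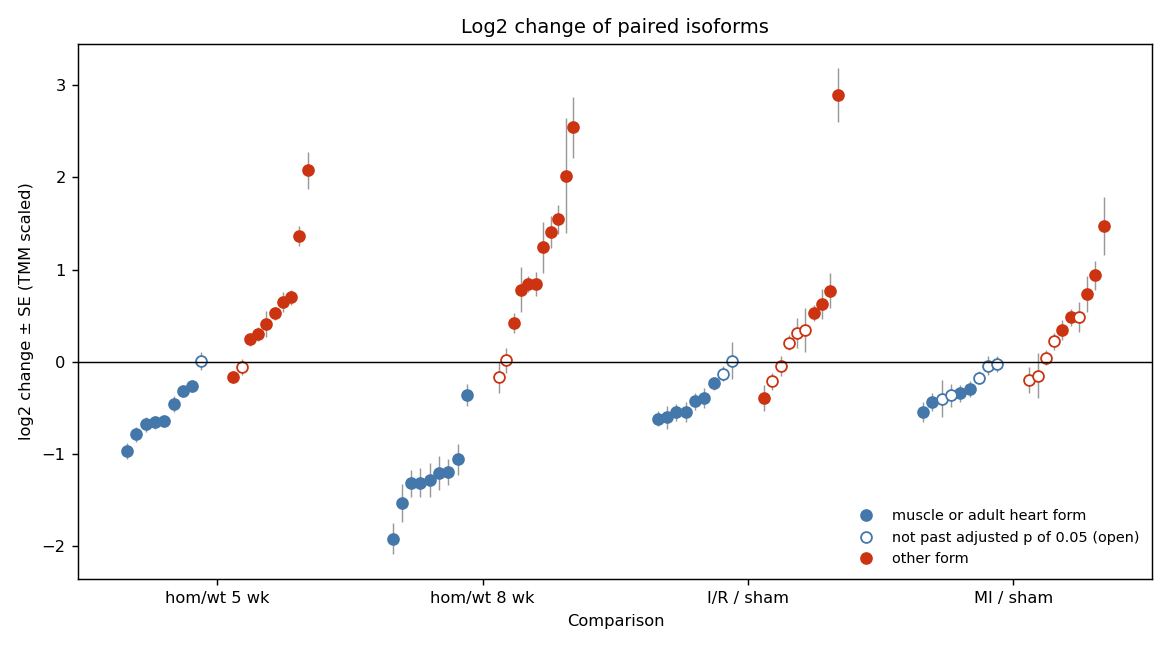
Log2 change ± SE (TMM scaled) of paired isoforms in homozygous hearts at 5 and 8 weeks and after ischemia-reperfusion and infarction, muscle or adult heart forms in blue and their counterparts in red, open where the adjusted p was above 0.05. At 8 weeks the filled blue points lie below 0 and the filled red points above 0. Aldoa is not drawn, although its counterpart Aldoc is. Its log2 change was -0.11 at 5 weeks and -0.0162 at 8 weeks, where it did not pass. After ischemia-reperfusion Aldoa gave -0.35 and after infarction -0.0200.

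The effect of the homozygous genotype at 8 weeks and that of infarction were set against each other in the fit of all 39 libraries. Of 33 members 7 differed upward and 11 downward, against 17.6% and 19.1% of all genes. Of the 10 muscle or heart forms in pairs, 9 had the more negative effect in homozygous hearts, with the largest differences for Eno3 (log2 difference -1.56 ± 0.197, adjusted p = 2.49e-07), Hk2 (log2 difference -1.15 ± 0.161, adjusted p = 1.25e-06) and Slc2a4 (log2 difference -1.10 ± 0.209, adjusted p = 8.65e-05). Upward differences included Pfkfb3 (log2 difference 1.36 ± 0.351, adjusted p = 0.00254), Slc2a1 (log2 difference 0.92 ± 0.242, adjusted p = 0.0031) and Gbe1 (log2 difference 0.69 ± 0.137, adjusted p = 0.00016). Pgam1 did not pass (log2 difference 0.0312 ± 0.308, adjusted p = 0.952). For Pfkp without 8-week wild type replicate 3 or 8-week homozygous replicate 4 or 12-week sham replicate 1 the adjusted p was 0.0557 to 0.0702. For Pfkfb2 without 8-week wild type replicate 2 or 8-week homozygous replicate 2 or 20-week sham replicate 1 the adjusted p was 0.0543 to 0.078. For Slc16a1 without 8-week wild type replicate 1 or 3 or 8-week homozygous replicate 2, 3 or 4 or infarction replicate 3 or 4 or 20-week sham replicate 1 or 2 or 12-week sham replicate 2 the adjusted p was 0.0528 to 0.0951. The 2 sets also differ in age and in surgery, which cannot be told apart from the difference between mutation and infarction.

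Growth of wild type hearts from 3 to 8 weeks gave the normal course of these genes: 8 of 32 members rose and 4 fell (median 0.058), against 8.44% and 7.81% of 13822 genes (median -0.0088). Pfkfb1 (log2 change 1.08 ± 0.155, adjusted p = 0.000157), Pdk1 (log2 change 0.59 ± 0.0901, adjusted p = 0.000301), Ugp2 (log2 change 0.58 ± 0.101, adjusted p = 0.000939) and Slc16a1 (log2 change 0.37 ± 0.0719, adjusted p = 0.00197) rose. Pfkp (log2 change -0.57 ± 0.0796, adjusted p = 0.000132), Eno1 (log2 change -0.43 ± 0.0952, adjusted p = 0.00476) and Pgk1 (log2 change -0.42 ± 0.0682, adjusted p = 0.000442) fell. Pfkp stood at 105, 123, 109 and 109 CPM at 3 weeks and 73.4, 77.8 and 70.8 CPM at 8 weeks, and Eno1 at 127, 128, 94.9 and 120.5 and 88.4, 76.7 and 92.3 CPM, neither with overlap. Hk2 rose (log2 change 0.30 ± 0.0694, adjusted p = 0.00702). The rises of Slc2a4 (log2 change 0.20 ± 0.0643, adjusted p = 0.0401), Ldhb (log2 change 0.20 ± 0.0656, adjusted p = 0.046) and Pfkfb3 (log2 change 0.41 ± 0.125, adjusted p = 0.0311) and the fall of Eno3 (log2 change -0.22 ± 0.0684, adjusted p = 0.0361) were near the threshold. For Slc2a4 without 3-week wild type replicate 1 or 2 or 8-week wild type replicate 1 or 2 the adjusted p was 0.0783 to 0.141. For Ldhb without 3-week wild type replicate 2, 3 or 4 or 8-week wild type replicate 1, 2 or 3 the adjusted p was 0.0689 to 0.117. For Pfkfb3 without 3-week wild type replicate 1, 2 or 4 or 8-week wild type replicate 1 or 2 the adjusted p was 0.0515 to 0.176. For Eno3 without 3-week wild type replicate 1 or 4 or 8-week wild type replicate 1, 2 or 3 the adjusted p was 0.0652 to 0.108. With a block on replicate number none of these 4 passed (adjusted p = 0.0745, 0.0995, 0.0559 and 0.0725). Pfkp and Eno1 fell with age in wild type and were higher in homozygous than in wild type hearts at 5 and 8 weeks, comparisons that share the 8-week wild type hearts.

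Other genes of the pathway are given in 4 lists chosen by function, with earlier results of these data known. Their counts stand beside shares of all genes tested of 22.3% risen and 21.4% fallen at 5 weeks, 30.8% and 29% at 8 weeks, 16.9% and 14.1% after ischemia-reperfusion and 6.62% and 4.77% after infarction, and several of them lie near those shares. Of other glycolytic and transport genes 5 of 12 tested rose and 3 fell at 5 weeks, 5 and 3 of 13 at 8 weeks, 3 and 2 of 13 after ischemia-reperfusion and 0 and 1 of 13 after infarction. Of genes of pyruvate entry and gluconeogenesis 2 of 11 rose and 7 fell at 5 weeks, 3 and 6 of 12 at 8 weeks, 1 and 6 of 12 after ischemia-reperfusion and 1 and 3 of 12 after infarction. Other glycogen genes gave 3 risen and 7 fallen of 20 at 5 weeks, 6 and 6 at 8 weeks, 2 and 6 after ischemia-reperfusion and 0 and 2 after infarction, and regulators 3 and 8 of 16, 4 and 8, 2 and 4, and 1 and 2. The median log2 changes of these 4 lists were 0.0382, -0.33, -0.14 and -0.21 at 5 weeks and 0.0356, -0.27, -0.16 and -0.12 at 8 weeks, in that order. In homozygous hearts of 5 weeks Myc, a growth factor-induced transcription factor (log2 change 2.44 ± 0.173, adjusted p = 2.07e-09), Pfkfb4, another phosphofructokinase-2 (log2 change 1.21 ± 0.127, adjusted p = 3.17e-07), and Hk3, a hexokinase of blood cells (log2 change 1.77 ± 0.212, adjusted p = 1.72e-06), rose. Epas1, a hypoxia-inducible factor (log2 change -0.77 ± 0.0619, adjusted p = 1.04e-08), Fbp2, the muscle fructose bisphosphatase (log2 change -1.40 ± 0.142, adjusted p = 2.08e-07), and Pdk2, a pyruvate dehydrogenase kinase (log2 change -0.62 ± 0.0725, adjusted p = 1.3e-06), fell. At 8 weeks Stbd1, a glycogen-binding protein (log2 change 1.63 ± 0.134, adjusted p = 1.24e-06), Myc (log2 change 2.51 ± 0.254, adjusted p = 5.03e-06) and Pdk3 (log2 change 1.96 ± 0.215, adjusted p = 9.02e-06) rose. Fbp2 (log2 change -3.42 ± 0.274, adjusted p = 1.05e-06), Pdp2, a pyruvate dehydrogenase phosphatase (log2 change -2.77 ± 0.244, adjusted p = 1.9e-06), and Esrra, a regulator of oxidative metabolism (log2 change -0.99 ± 0.0951, adjusted p = 3.32e-06), fell. Against heterozygous hearts, Hif1a was also higher in homozygous hearts (log2 change 1.02 ± 0.104, adjusted p = 4.07e-06). After ischemia-reperfusion Hk3 (log2 change 2.56 ± 0.27, adjusted p = 8.26e-06), Myc (log2 change 1.44 ± 0.297, adjusted p = 0.00191) and Pfkfb4 (log2 change 0.72 ± 0.177, adjusted p = 0.00591) rose. Epm2a, the glycogen phosphatase laforin (log2 change -0.53 ± 0.0811, adjusted p = 0.000194), and Phkb, a phosphorylase kinase subunit (log2 change -0.53 ± 0.0818, adjusted p = 0.000199), fell. After infarction Pck1, an enzyme of gluconeogenesis that fat also expresses (log2 change 3.86 ± 0.717, adjusted p = 0.00383), and Hif1a, a hypoxia-inducible factor (log2 change 0.51 ± 0.149, adjusted p = 0.0398), rose. Ldhd, which oxidizes D-lactate (log2 change -0.75 ± 0.0988, adjusted p = 0.000445), Pdk2 (log2 change -0.39 ± 0.0825, adjusted p = 0.0075) and Klf15, a regulator of muscle metabolism (log2 change -0.70 ± 0.147, adjusted p = 0.00772), fell. In wild type hearts Ldhd (log2 change 1.17 ± 0.083, adjusted p = 1.25e-07), Pcx, pyruvate carboxylase (log2 change 0.95 ± 0.0966, adjusted p = 4.17e-06), and Ppp1r3c, a glycogen-targeting subunit (log2 change 0.75 ± 0.092, adjusted p = 3.23e-05), rose from 3 to 8 weeks, and Pdk3 (log2 change -1.11 ± 0.193, adjusted p = 0.000865), Pck2 (log2 change -0.47 ± 0.0976, adjusted p = 0.00311) and Myc (log2 change -0.80 ± 0.183, adjusted p = 0.00601) fell.

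Markers of other cell types moved with the same groups. Of all genes tested 22.3% rose and 21.4% fell at 5 weeks, and 30.8% and 29% at 8 weeks. The shares were 16.9% and 14.1% after ischemia-reperfusion and 6.62% and 4.77% after infarction. Some of the marker counts below lie near these shares. The summed level of 10 fibroblast markers was 2089 to 2343 CPM in wild type and 6884 to 9549 CPM in homozygous hearts of 5 weeks, 1636 to 1707 and 6365 to 14360 at 8 weeks, 1153 to 1976 in sham, 4909 to 10200 in ischemia-reperfusion and 2412 to 4524 in infarction hearts. 10 of 10 rose at 5 weeks, 10 at 8 weeks, 8 after ischemia-reperfusion and 7 after infarction. Of 10 macrophage markers 9 rose and 1 fell at 5 weeks, 10 rose at 8 weeks, 9 after ischemia-reperfusion and 3 after infarction, with sums of 437 to 473 CPM in wild type against 1932 to 2524 in homozygous hearts at 5 weeks, 403 to 515 against 1449 to 2988 at 8 weeks, and 273 to 466 in sham against 1245 to 2078 after ischemia-reperfusion and 465 to 706 after infarction. Cardiomyocyte markers summed to 59210 to 62120 CPM in wild type and 41250 to 48330 in homozygous hearts of 5 weeks, 70530 to 75660 and 31800 to 48910 at 8 weeks, 48420 to 57200 in sham, 37570 to 46440 after ischemia-reperfusion and 47300 to 54660 after infarction. Of 11 markers 9, 7, 9 and 1 fell in these 4 comparisons, and 0 rose. Myh6 made up a large part of the sum, with a mean of 35260 CPM in wild type and 12920 in homozygous hearts of 8 weeks. Means of Tnnt2 (6720 against 7307 CPM), Actn2 (2444 against 2649) and Nkx2-5 (61.0 against 75.7) were higher in these homozygous hearts, and those of the other markers lower. Neutrophil markers summed to 27.0 to 48.7 CPM after ischemia-reperfusion and to 3.19 to 7.62 CPM in sham. Of endothelial markers 9 of 10 fell at 5 weeks, 3 rose and 5 fell at 8 weeks, 2 fell after ischemia-reperfusion and 0 after infarction. Of 8 smooth muscle and pericyte markers 7 fell at 5 weeks, 1 rose and 4 fell at 8 weeks, 2 rose and 3 fell after ischemia-reperfusion and 2 fell after infarction. Of the few testable markers of other types, adipocyte markers rose in 3 of 5 at 8 weeks and 4 of 5 after infarction and fell in 1 of 2 at 5 weeks and 1 of 5 after ischemia-reperfusion, and neutrophil markers rose in 1 of 1 at 5 weeks, 3 of 3 at 8 weeks, 3 of 3 after ischemia-reperfusion and 0 of 3 after infarction. Red cell markers fell in 5 of 5 at 5 weeks and passed in 0 of 5 in the other 3 comparisons, and skeletal muscle markers rose in 2 of 3 at 5 weeks, 1 of 7 at 8 weeks and 2 of 6 after ischemia-reperfusion, and fell in 1 of each of the latter. The part of these cell types in the rise of Slc2a1, Pfkp, Pgam1, Eno1, Ldha and Slc16a3 or in the fall of the muscle or heart forms was not tested.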

How the data were processed

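RNA of 39 mouse left ventricles was sequenced, and the authors deposited 1 table of read counts per gene, not normalized. The submitters' processing notes name STAR 2.7.3a, Subread 2.0.0 with featureCounts, and the build mm10; the strand setting was not given in the sources used here, nor was the annotation release. Reads of overlapping genes on opposite strands may therefore be shared. Libraries held 9402904 to 19320791 deposited counts, and 0.133% of counts fell on IDs without a gene name. No pair of libraries was identical.

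Genes were filtered with filterByExpr (minimum count 10, total 15), scaled with TMM and tested with edgeR 4.0.16 (quasi-likelihood F test, two-sided; R 4.3.3), with Benjamini-Hochberg adjustment over all genes and a threshold of 0.05. The fits held the groups of 1 age or of the surgery set, and interactions were fitted on all libraries. SE is the log2 change divided by the square root of F. The fit was tested on simulated data. Alternatives were DESeq2 1.42.0, limma 3.58.1 voom with quality weights, other scaling, no filter, a replicate block, other sets of libraries and leaving out each library. Replicate numbers are shared between groups, but deviations of equally numbered libraries correlated between -0.16 and 0.247, so the numbers were not taken to pair hearts.

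Isoform ratios are log2 ratios of counts plus 0.5, given with their range, or with the SE of a difference of means, and without a p-value, since the pairs were chosen with results known. The members and lists were chosen with earlier results of these data known. All members are named; of other pathway genes, up to 3 in each direction and comparison with the smallest adjusted p are named across the 4 lists, leaving out those of the interactions; 1 gene that the rule names is not reported here. Exon lengths and gene positions come from the GRCm38 annotation and shared sequence from all 50-base stretches of its transcripts.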

Additional observations from a re-analysis of the deposited data

Results flagged for a closer look

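Within groups of 4 hearts, 26 of 396 tests of a gene's CPM or of a log2 ratio set 1 library apart from the other 3 by Dixon's criterion, which chance does in about 1 of 20 groups. Heterozygous replicate 2 stood apart for Slc2a1 (23.1 CPM), Gpi1 (679.6 CPM), Pfkm (1075 CPM), Eno1 (104 CPM) and the log2 ratio of Pfkm to Pfkp (3.50), and heterozygous replicate 1 for Pdk1 (172 CPM). Homozygous hearts of 8 weeks stood apart for Slc2a1 (74.5 CPM), Pgam1 (23.3 CPM) and the log2 ratio of Aldoa to Aldoc (13.4) in replicate 4 and for Pdk1 (226 CPM) in replicate 1. At 5 weeks the homozygous hearts concerned were replicate 2 for Aldoc (0.652 CPM) and its ratio (11.8) and replicate 3 for Phka1 (48.3 CPM) and the ratio of Pfkm to Pfkp (2.33), and wild type replicate 1 had 69.0 CPM of Phka1. At 3 weeks they were wild type replicate 4 for Pfkm (1176 CPM), replicate 3 for Pkm (1188 CPM) and replicate 2 for Gys1 (166 CPM) and the ratio of Pfkfb2 to Pfkfb3 (3.26), and homozygous replicate 1 for Pfkfb3 (16.8 CPM). In the surgery set they were infarction replicate 2 for Phkg1 (12.4 CPM) and the ratios of Hk2 to Hk1 (0.0366) and of Pfkm to Pfkp (2.51), ischemia-reperfusion replicate 4 for Pkm (956 CPM) and replicate 2 for Pygb (1157 CPM), and 12-week sham replicate 1 for Slc16a1 (265 CPM).

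The genotype effect differed between ages for 28 gene and age combinations by an interaction test in edgeR. From 3 to 5 weeks the log2 differences upward were 1.29 for Slc2a1, 0.63 for Pfkp, 0.34 for Pgk1, 0.45 for Eno1, 1.80 for Slc16a3 and 0.59 for Gbe1. Downward they were -0.60 for Slc2a4, -0.69 for Pfkm, -0.81 for Eno3, -0.68 for Ldhb, -0.71 for Slc16a1, -0.51 for Pygm and -1.65 for Phkg1. From 5 to 8 weeks they were 0.57 for Hk1, 0.54 for Gpi1, 0.87 for Pfkp, 0.41 for Gapdh, 0.35 for Pgk1 and 1.09 for Phka1. The downward ones were -0.72 for Slc2a4, -1.02 for Hk2, -0.51 for Pfkm, -1.19 for Pfkfb2, -0.57 for Pgam2, -0.92 for Eno3, -0.61 for Ldhb, -0.61 for Pygm and -1.22 for Phkg1.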

How the results depend on the processing

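Of 163 calls of a member in a comparison, 114 stayed past the threshold in the same direction in every alternative run. With a pseudocount of 5 the 46 differences in isoform ratio without overlap between groups moved by less than the spread between hearts. Leaving out 1 library cannot move a difference of means by that spread in groups of this size, so those runs do not test the ratios. The sign turned for Pfkl and Pdk1 with library totals as the scale at 5 weeks (log2 changes of 0.0433 and 0.0382). The number of members called moved by over 1.5 times with DESeq2 at 3 weeks (3), with library totals (12) and with the 2 shams of 12 weeks (8) after ischemia-reperfusion, and in the fit of all 39 libraries for wild type hearts from 3 to 8 weeks (7); the cause was not tested. Leaving out 1 library gave 20 to 23 members at 5 weeks, 22 to 25 at 8 weeks, 23 to 25 against heterozygous hearts, 21 to 24 after ischemia-reperfusion, 5 to 12 after infarction, 8 to 13 in wild type growth, and 0 at 3 weeks and in heterozygous hearts. For the interactions it gave 10 to 13, 13 to 17 and 16 to 22. With a block on the replicate number 23 members were called at 5 weeks, 23 at 8 weeks, 20 after ischemia-reperfusion, 11 after infarction and 8 in wild type growth. Over all genes, DESeq2 called 57 higher and 55 lower at 3 weeks, against 0 and 0. With library totals 5388 were higher and 1411 lower at 5 weeks against 2969 and 2852, 4189 and 431 after ischemia-reperfusion against 2301 and 1921, and 1406 and 317 after infarction against 901 and 649. With the shams of matched age, 1456 and 680 genes were called after ischemia-reperfusion and 564 and 377 after infarction, and the fit of all libraries called 687 and 544 in wild type growth against 1166 and 1079. At 3 weeks 18 and 7 were called without a filter and 30 and 16 in the fit of all libraries. Depth limits Aldoc most, with 176 counts in all.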
